A study of Mus musculus with 9 samples.

Results

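The DnaJ, or heat shock protein 40, family was examined for its recovery with the phosphorylated form of UPF1 (p-UPF1) in activated mouse splenic B cells. Members were chosen by gene symbol, as all genes of the count table whose name begins with Dnaja, Dnajb or Dnajc and a number, with Dnajb2 and Dnajb11 left out. This selected 44 of 27179 genes, of which 4 belong to class A, 11 to class B and 29 to class C. No count entered this choice, but the family was proposed with earlier results of these data in view, in which Dnajc28 was among the RNAs most enriched with p-UPF1. The values of Dnajc28 are therefore a description and carry no test here.

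All libraries came from the spleen of wild-type mice. CD43-negative B cells were activated for 72 h with CD40L at 5 ug/mL (an anti-CD40 antibody per the study's methods), anti-IgM antibody at 10 ug/mL and IL-4 at 20 ng/mL. RNA was sequenced from 3 libraries of whole lysate (input), 3 of a precipitate made with normal rabbit IgG and 3 of a precipitate made with an antibody against p-UPF1. These groups differed only in the precipitation, and nothing in the labels ties a replicate to its own animal or culture, so the tests measure the spread between these libraries.

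A DnaJ protein carries a J domain, and the His-Pro-Asp motif of this domain makes an Hsp70 chaperone hydrolyse its ATP and hold on to its client. Class A members also have a glycine- and phenylalanine-rich stretch and a zinc-binding region built of cysteine repeats, class B members lack the zinc-binding region, and class C members share only the J domain, which can lie anywhere in the protein. UPF1 is the RNA helicase of nonsense-mediated mRNA decay (NMD), and it becomes phosphorylated on RNAs to which decay factors are recruited. RNA that comes down with p-UPF1 is therefore set against the RNA that comes down with IgG and against its abundance in the lysate.

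The class of each member was checked on the coding sequences of its mouse transcript in GENCODE M21. The His-Pro-Asp motif was present in 42 of the 43 members with a complete coding sequence, and the exception was Dnajb13, a protein of motile cilia and sperm flagella. A cysteine repeat of the zinc-binding kind was found in 4 of 4 class A members and in 0 class B and 0 class C members. The codons of the motif, in capitals, are shown with their flanking coding bases for the 4 members that reached the criterion for p-UPF1 binding given below and for Dnaja1 and Dnajb9, which lay at the other end of their classes. Each line is the sense strand of the mRNA, 5′ to 3′, in DNA letters.
Dnajc28: gccaggcagtacCACCCAGACagcggttct
Dnajc27: gctgtgctgcttCACCCGGACaagtgtgta
Dnajc5: gccctgaagtatCACCCTGACaagaaccct
Dnajc11: tgtatgctttacCATCCGGACaagcacagg
Dnaja1: gccttgaagtacCACCCTGATaagaatcca
Dnajb9: gccatgaagtacCACCCTGACaaaaataaa
On GRCm38, the assembly that mm10 names, the codons in capitals lie in coding exons at chr16:91617121-91617129 (Dnajc28, minus strand, exon 2), chr12:4106845-4106853 (Dnajc27, plus strand, exon 7), chr2:181547359-181547367 (Dnajc5, plus strand, exon 3), chr4:151950445-151950453 (Dnajc11, plus strand, exon 2), chr4:40723812-40723820 (Dnaja1, plus strand, exon 2) and chr12:44208136-44208144 (Dnajb9, minus strand, exon 2). Counted from the first methionine, the motif begins at residue 34 of 397 in Dnaja1, at residue 43 of 198 in Dnajc5 and at residue 245 of 273 in Dnajc27, so the J domain of Dnajc27 is at the far end of the protein.

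The total count per library was 19873687 to 24945286 for input, 17372510 to 18550508 for IgG and 23251890 to 24802119 for p-UPF1. Levels are given as CPM, counts scaled to a common library size by TMM, and 0 on the log2 fold change scale means the typical RNA of a library. The B cell markers Cd79a, Cd79b, Ms4a1, Pax5 and Cd74 were all tested and summed to 8181 to 8352 CPM in input libraries, to 4228 to 4300.5 CPM in IgG libraries and to 2110 to 2212 CPM in p-UPF1 libraries. Cd74 made up most of this sum in input, at 5977 ± 79.4 CPM, but not in p-UPF1, at 920 ± 23.6 CPM. The other markers did not all follow it. Pax5 stood at 58.0 ± 1.67 CPM in input, 243 ± 14.3 CPM with IgG and 182 ± 9.89 CPM with p-UPF1 (SD, n = 3), and Ms4a1 was higher than in IgG by 0.21 and lower than in input, at -0.73, on the log2 scale. The T cell markers summed to at most 0.561 CPM and the NK cell markers to at most 0.499 CPM in any library, and the erythroid genes Hbb-bs and Hba-a1 were at 0 counts in all 9. Of the myeloid markers only Adgre1 passed the filter on low counts, at 131 ± 6.27 CPM in input, 89.3 ± 3.16 CPM with IgG and 57.8 ± 1.14 CPM with p-UPF1 (SD, n = 3), while Lyz2, Csf1r and Itgam had at most 10 counts in any library. The plasma cell markers Sdc1, Xbp1 and Prdm1 were tested and summed to 271 to 278 CPM in input libraries, 215 to 248 CPM in IgG libraries and 134 to 137 CPM in p-UPF1 libraries. Most of this sum was Xbp1, while Sdc1, at 3.87 ± 0.397 CPM in input, 2.33 ± 0.263 CPM with IgG and 9.32 ± 0.237 CPM with p-UPF1 (SD, n = 3), was highest in p-UPF1. The part of myeloid or plasma cells in the results was not tested.

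Of the 44 members, 37 had enough counts to be tested, 4 in class A, 8 in class B and 25 in class C. The other 7, which are Dnajb3, Dnajb7, Dnajb8, Dnajc5b, Dnajc5g, Dnajc6 and Dnajc22, had at most 10 counts in any library. In bulk lysates, fewer cells of a type and less RNA per cell cannot be told apart. Among the untested members, Dnajb7 had 6, 6 and 6 counts in the input libraries, 10, 8 and 10 counts in the IgG libraries and 0, 1 and 0 counts in the p-UPF1 libraries. Per kilobase of transcript, the most abundant members in input were Dnaja2 at 136 ± 3.36 CPM per kb, the ribosome-associated Dnajc2 at 127 ± 2.05 and the spliceosomal Dnajc8 at 122 ± 2.77 (SD, n = 3). Among tested members with a transcript length, the least abundant were Dnajb13 at 0.626 ± 0.117 CPM per kb and Dnajb14 at 0.891 ± 0.0481.

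DnaJ transcripts went in both directions in the p-UPF1 precipitate, as did the genes tested as a whole. Over IgG, 13 members rose and 20 fell (edgeR quasi-likelihood test, Benjamini-Hochberg adjusted P under 0.05), while 40.4% of all 13129 genes tested were higher and 42.2% lower, so that differing from IgG in one direction or the other was nearly as common among all genes. Over input, 15 rose and 19 fell, where 40.8% of all genes were higher and 42.6% lower. As shares of the tested members, 35.1% were higher and 54.1% lower over IgG, and 40.5% were higher and 51.4% lower over input. Both contrasts share the p-UPF1 libraries. The tested members had a median log2 fold change of -0.46 relative to IgG and -0.18 relative to input, against -0.03 and -0.03 over all genes. The members' median relative to input was -0.42 without p-UPF1 library A and -0.33 without input library C, where that of all genes was -0.02 and -0.04. With an IgG library as the TMM reference and with no low-count filter it was -0.071 and -0.051, but the median of all genes moved up as well, to 0.08 and 0.10.

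The fold changes of single members spread widely around these medians. Over IgG they ran from -3.37 to 3.70 on the log2 scale with an SD of 1.57 across members, against 1.34 across all genes, and the median standard error of a member was 0.06. The low end was the pseudogene Dnajc19-ps, with fewer than 10 counts in each p-UPF1 library. By 1 or more on the log2 scale, 7 members were higher over IgG and 12 were lower, while 22.2% of all genes were higher and 21.9% lower by that much. In 14 members all p-UPF1 libraries lay above all 6 other libraries, as in 37.0% of genes, and in 18 they lay below all others, as in 37.6% of genes.

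**Figure D1:**
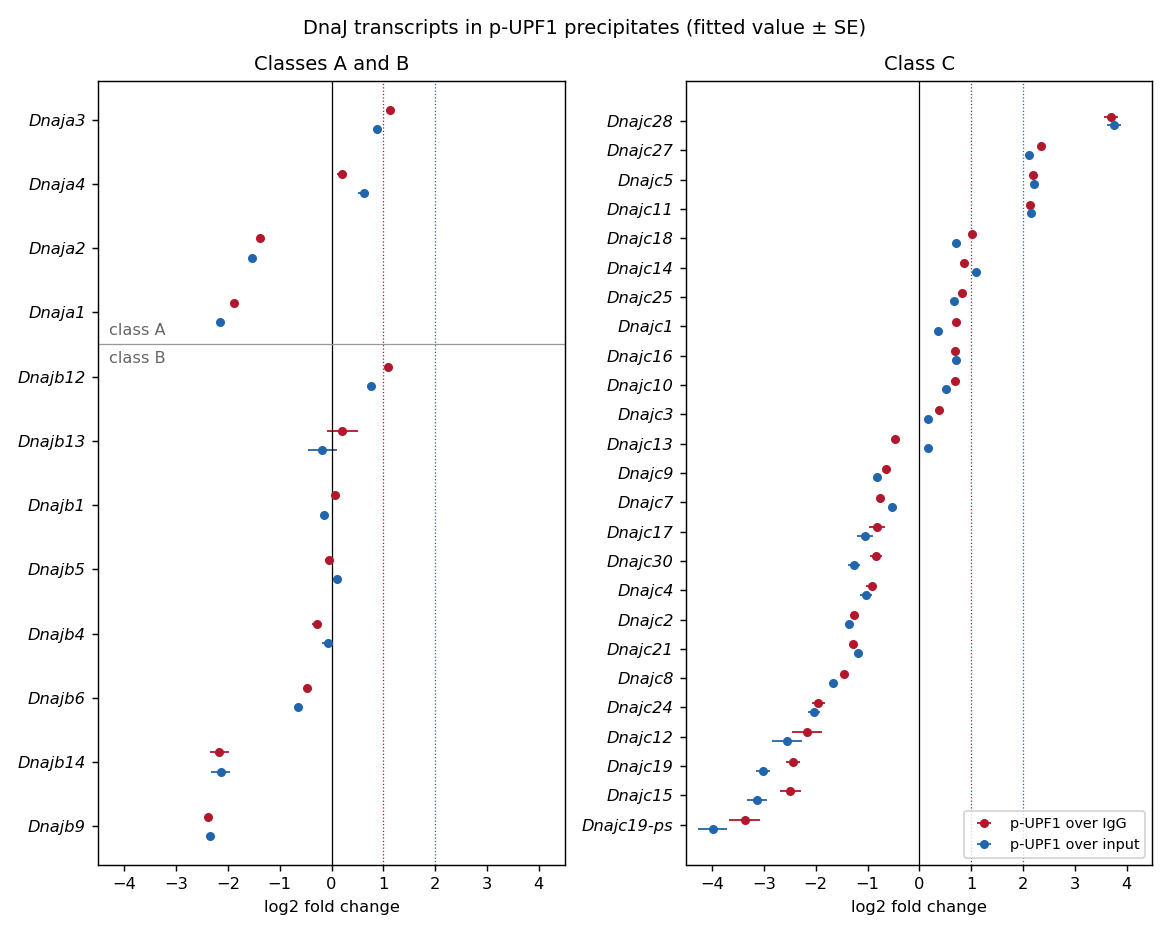
Log2 fold change of p-UPF1 over IgG (red) and over input (blue) for the 37 tested DnaJ members, by class, as fitted values with bars of 1 standard error. Dotted lines mark the minima of the binding criterion, 1 over IgG (red) and 2 over input (blue), and only Dnajc28, Dnajc27, Dnajc5 and Dnajc11, at the top of class C, lie beyond both.

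Binding to p-UPF1 was called by the criterion of the study's methods, which asks for a log2 enrichment of 1 or more relative to IgG and of 2 or more relative to input, both at an adjusted P under 0.05. It was met by 4 of the 37 tested members, or 10.8%, and by 6.25% of all genes tested. Without Dnajc28, whose enrichment was known when the family was proposed, it was 3 of 36 or 8.33%. All 4 were of class C. They were Dnajc5, the cysteine string protein of secretory vesicles, Dnajc27, a Rab-like GTPase joined to a J domain, Dnajc11, a mitochondrial protein of the cristae-organising machinery, and Dnajc28, a little-studied member assigned to mitochondria.

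Dnajc28 (NCBI Gene 246738, chr16:91614257-91618999, minus strand) had the highest fold change of the family. It stood at 3.33, 3.78 and 3.87 CPM in the input libraries, at 4.89, 4.08 and 2.46 CPM with IgG and at 48.4, 49.8 and 49.9 CPM with p-UPF1. The input and IgG libraries overlapped and the p-UPF1 libraries lay far above both. The fitted log2 fold change was 3.70 over IgG and 3.76 over input, which is 13.0-fold and 13.5-fold. Per kilobase it was among the scarcer members of the lysate at 1.04 ± 0.0831 CPM per kb, and it reached 14.0 ± 0.234 in p-UPF1 (SD, n = 3).

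Dnajc5 (NCBI Gene 13002, chr2:181518858-181552886, plus strand) stood at 22.0 ± 0.654 CPM per kb in the lysate, far above Dnajc28 (SD, n = 3). Its input libraries held 141, 149 and 144 CPM, its IgG libraries 147, 148 and 143 CPM and its p-UPF1 libraries 668, 680 and 670 CPM. The IgG and input libraries overlapped (edgeR adjusted P of 0.752), and all p-UPF1 libraries were above them. The log2 fold change was 2.20 ± 0.04 over IgG and 2.22 ± 0.04 over input (SE), with edgeR adjusted P of 2.18e-17 and 1.41e-17.

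Dnajc11 (NCBI Gene 230935, chr4:151933720-151981959, plus strand) behaved much the same. It had 74.8, 79.7 and 76.2 CPM in input, 74.3, 81.0 and 77.4 CPM with IgG and 328, 340 and 354 CPM with p-UPF1. Input and IgG interleaved, with the p-UPF1 libraries above both. Its log2 fold change was 2.14 ± 0.05 over IgG and 2.15 ± 0.05 over input (SE), with edgeR adjusted P of 2.57e-16 and 1.87e-16. Per kilobase, Dnajc11 at 108 ± 4.08 and Dnajc5 at 102 ± 1.03 CPM per kb were the most recovered members of the family in p-UPF1 libraries (SD, n = 3).

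Dnajc27 (NCBI Gene 217378, chr12:4082569-4124140, plus strand) was the bound member nearest to the input minimum. Its levels were 25.3, 26.5 and 26.5 CPM in input, 23.7, 22.9 and 20.4 CPM with IgG and 112, 112 and 118 CPM with p-UPF1. The IgG libraries lay just under the input libraries, and the p-UPF1 libraries above both. The log2 fold change was 2.35 ± 0.06 over IgG and 2.13 ± 0.06 over input (SE), with edgeR adjusted P of 1.32e-15 and 2.49e-15. When the fold minimum itself was tested with edgeR's glmTreat, 3 members met the criterion and Dnajc27 no longer did.

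The members closest to the input minimum on the inside were Dnajc27 at 2.13, Dnajc11 at 2.15 and Dnajc5 at 2.22. On the outside, Dnajc14, a membrane protein of the endoplasmic reticulum (ER), stood at 1.10, Dnaja3 at 0.87 and Dnajb12 at 0.75, so the stretch from 1.10 to 2.13 on this scale held no tested member. Dnajc14 had 69.5, 70.8 and 69.9 CPM in input, 90.3, 77.7 and 81.0 CPM with IgG and 147, 148 and 155 CPM with p-UPF1, and its exons overlap those of a neighbouring gene on each strand. Here the IgG libraries were above input, and the log2 fold change over IgG was 0.85 ± 0.05 (SE, edgeR adjusted P of 1.32e-10). Dnajb2, one of the 2 symbols left out, met the criterion at 2.69 over IgG and 2.93 over input, while Dnajb11, the other, fell by 0.42 and 0.60.

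**Figure D2:**
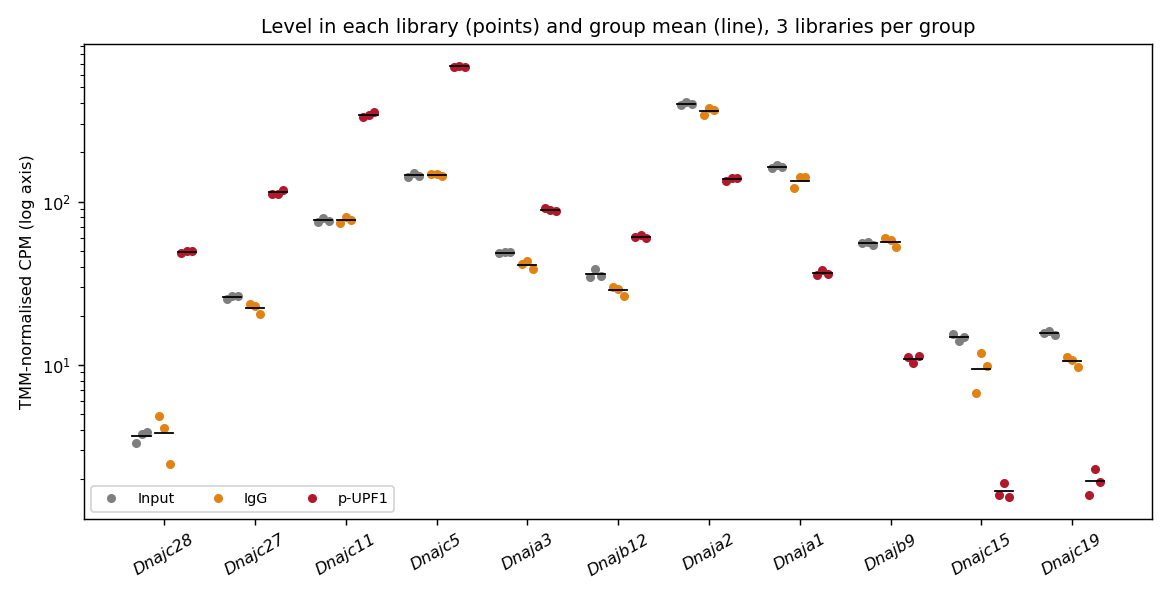
Level of 11 DnaJ transcripts in every library as TMM-normalised CPM on a log axis, with input in grey, IgG in orange, p-UPF1 in red and a black line at each group's mean. In the 6 transcripts on the left all p-UPF1 points lie above the other points, as for Dnajc28 at 48.4 to 49.9 CPM, and in the 5 on the right they lie below, as for Dnajb9 at 10.2 to 11.3 CPM.

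The 4 class A members, the general cochaperones of cytosol and mitochondria, parted by gene. Dnaja3, the mitochondrial member, had 48.4, 48.9 and 48.9 CPM in input, 41.6, 43.0 and 38.4 CPM with IgG and 91.6, 88.6 and 87.2 CPM with p-UPF1. It was the highest of its class, with p-UPF1 libraries above all others and a log2 fold change of 1.12 ± 0.05 over IgG (SE, edgeR adjusted P of 3.16e-12) and 0.87 ± 0.05 over input. Dnaja4, a cytosolic member, had 6.61, 6.36 and 7.13 CPM in input, 9.30, 8.52 and 8.98 CPM with IgG and 10.6, 10.1 and 10.2 CPM with p-UPF1. It rose over input by a log2 fold change of 0.62 ± 0.10 (SE), but over IgG the value was 0.21 ± 0.10 with an edgeR adjusted P of 0.0682, which was 0.24 and passed the threshold without IgG library A. Over IgG it was 0.045 with library size alone, 0.071 with upper-quartile scaling and 0.12 with an input library as the TMM reference, none of which passed.

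The 2 cytosolic partners of Hsc70, Dnaja1 and Dnaja2, went the other way. Dnaja1 had 159, 167 and 162 CPM in input, 120, 141 and 141 CPM with IgG and 35.4, 38.2 and 35.9 CPM with p-UPF1. Dnaja2 had 391, 409 and 395 CPM in input, 339, 373 and 366 CPM with IgG and 134, 140 and 139 CPM with p-UPF1. In both, p-UPF1 libraries lay below all IgG libraries, which in turn lay below input. The log2 fold change over IgG was -1.88 ± 0.06 for Dnaja1 and -1.39 ± 0.04 for Dnaja2 (SE, edgeR adjusted P of 4.02e-14 and 2.55e-14), and over input it was -2.16 and -1.53. Exons of Dnaja1, Dnaja3 and Dnaja4 overlap exons on the opposite strand, so their counts are uncertain if strand was not used in counting. Those of Dnaja1 and Dnaja3 also overlap a gene on the same strand, which leaves them uncertain either way. Class A as a whole made up 0.0606% ± 0.000887 of input counts and 0.0261% ± 0.000238 of p-UPF1 counts (SD, n = 3).

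In class B, which holds the heat-inducible Dnajb1 among others, 1 of 8 tested members rose over IgG and 4 fell, or 12.5% and 50.0%, where 40.4% of all genes were higher and 42.2% lower. The median log2 fold change of the class was -0.17 over IgG and -0.16 over input. Under 6 scalings of the counts it ran from -0.33 to -0.155 over IgG and from -0.23 to -0.051 over input. The median of all genes moved with the scaling as well. The highest was Dnajb12, an ER membrane protein that works in degradation of misfolded membrane proteins, at 34.8, 38.6 and 35.2 CPM in input, 30.1, 29.2 and 26.3 CPM with IgG and 60.7, 62.2 and 59.9 CPM with p-UPF1. Its p-UPF1 libraries lay above all others, and its log2 fold change was 1.09 ± 0.06 over IgG and 0.75 ± 0.06 over input (SE, edgeR adjusted P of 5.61e-11 and 4.76e-09). The lowest was Dnajb9, which is induced by ER stress and acts on the ER chaperone BiP. It had 56.1, 56.9 and 54.6 CPM in input, 59.7, 58.3 and 52.7 CPM with IgG and 11.2, 10.2 and 11.3 CPM with p-UPF1, and all p-UPF1 libraries were below the overlapping input and IgG libraries. The log2 fold change of Dnajb9 was -2.38 ± 0.07 over IgG and -2.35 ± 0.07 over input (SE, edgeR adjusted P of 7.17e-15 and 6.36e-15).

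Dnajb14, the close relative of Dnajb12 in the ER membrane, went the opposite way to it. It had 8.96, 8.28 and 8.10 CPM in input, 6.80, 8.47 and 10.5 CPM with IgG and 2.02, 1.53 and 2.18 CPM with p-UPF1, a log2 fold change of -2.16 ± 0.18 over IgG (SE, edgeR adjusted P of 1.07e-08). Dnajb6, which keeps aggregation-prone proteins soluble, fell by 0.46 on the log2 scale over IgG and by 0.65 over input. Dnajb1, the heat-inducible cytosolic Hsp40, had a value of 0.07 ± 0.05 over IgG (SE, edgeR adjusted P of 0.191), which was 0.11 and passed the threshold without IgG library A, and its sign over IgG turned to -0.088 with library size alone. Over input it had a value of -0.14 (edgeR adjusted P of 0.0170), a call lost with DESeq2, with its size factors, with an IgG library as the TMM reference (-0.031), with no low-count filter (-0.0088), without input library B and without p-UPF1 library A. Dnajb5 and Dnajb13 passed the test in neither contrast with p-UPF1, at -0.06 and 0.21 over IgG. Dnajb5 did pass over IgG with library size alone (-0.22) and upper-quartile scaling (-0.19), and over input with DESeq2 size factors (0.15), an IgG library as the TMM reference (0.21), no low-count filter (0.24) and only the groups compared (0.13). Dnajb4 fell by 0.28 over IgG with an edgeR adjusted P of 0.0216 that was lost without IgG library A, without IgG library C, without p-UPF1 library B or C, with DESeq2 and when no low-count filter was applied.

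Class C, the largest, gave 11 members that rose over IgG and 14 that fell among 25 tested, or 44.0% and 56.0% against 40.4% and 42.2% of all genes. Its median log2 fold change was -0.64 over IgG and -0.53 over input. Its counts made up 0.184% ± 0.000204 of input, 0.207% ± 0.00310 of IgG and 0.242% ± 0.000913 of p-UPF1 libraries (SD, n = 3). The 4 bound members, whose rise the criterion itself fixes, account for the higher share, since the other 25 members of the class made up 0.159% ± 0.000703 of input, 0.180% ± 0.00295 of IgG and 0.130% ± 0.00154 of p-UPF1 counts (SD, n = 3). At its low end were Dnajc19 and Dnajc15, which are subunits of the motor that pulls proteins into the mitochondrial matrix, and the pseudogene Dnajc19-ps. Dnajc15 had 15.4, 14.0 and 14.9 CPM in input, 6.70, 11.7 and 9.90 CPM with IgG and 1.60, 1.90 and 1.54 CPM with p-UPF1. Dnajc19 had 15.7, 16.05 and 15.1 CPM in input, 11.1, 10.7 and 9.65 CPM with IgG and 1.60, 2.30 and 1.90 CPM with p-UPF1. For both genes the 3 groups were apart, with input highest and p-UPF1 lowest. The log2 fold change over IgG was -2.49 ± 0.20 for Dnajc15 and -2.44 ± 0.14 for Dnajc19 (SE, edgeR adjusted P of 4.90e-09 and 5.28e-11).

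Dnajc19-ps (chr7:103882573-103883104) was the lowest member of the whole family over IgG. It had 3.65, 4.49 and 4.08 CPM in input, 2.50, 2.70 and 2.72 CPM with IgG and 0.337, 0.226 and 0.181 CPM with p-UPF1. Its p-UPF1 libraries held 8, 5 and 4 counts, under the filter's minimum count of 10. It was therefore tested only through its input and IgG libraries, and its fall is a description. As a copy of Dnajc19 it can share reads with that gene, and the counts of both are uncertain. The log2 fold change was -3.37 ± 0.30 over IgG and -3.99 ± 0.28 over input (SE). Dnajc12, a cochaperone of the aromatic amino acid hydroxylases, and Dnajc24, which takes part in diphthamide synthesis, also fell, by 2.17 and 1.95 on the log2 scale over IgG. With the signs of the binding criterion turned, a count added after the values were seen, 8 members lay at or under -1 over IgG and -2 over input, or 21.6% of those tested, against 9.41% of all genes. They were Dnaja1, Dnajb9, Dnajb14, Dnajc12, Dnajc15, Dnajc19, Dnajc19-ps and Dnajc24. Of these, Dnajc19-ps passed the filter only through input and IgG, as said above.

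The class C members that belong to none of the compartment lists below also went both ways. Dnajc25, a membrane protein, had 13.3, 13.5 and 12.9 CPM in input, 11.4, 11.9 and 12.5 CPM with IgG and 21.9, 20.6 and 20.9 CPM with p-UPF1, and it rose by a log2 fold change of 0.83 ± 0.08 over IgG (SE, edgeR adjusted P of 5.54e-08). Dnajc7, which binds both Hsp70 and Hsp90, had 216, 214 and 208 CPM in input, 259, 250 and 238 CPM with IgG and 154, 141 and 147 CPM with p-UPF1. Its IgG libraries were above input and its p-UPF1 libraries below both, at -0.76 ± 0.05 on the log2 scale over IgG and -0.53 ± 0.05 over input (SE, edgeR adjusted P of 9.64e-11 and 1.01e-08). Exons of 15 of the 37 tested members, Dnajc7 among them, overlap an exon on the opposite strand, and those of the 4 bound members do not. Exons of 5 tested members overlap another gene on the same strand, so their counts are uncertain whether or not strand was used. They are Dnaja1, Dnaja3, Dnajb14, Dnajc14 and Dnajc25.

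By the compartment in which the proteins act, members of the mitochondrial list went both ways. Of its 7 members, 3 rose over IgG (Dnajc28, Dnajc11 and Dnaja3) and 4 fell (Dnajc15, Dnajc19, Dnajc4 and Dnajc30), with a median log2 fold change of -0.84. The counts were the same over input. Among all genes 40.4% were higher and 42.2% lower over IgG, and 40.8% and 42.6% over input, so the number of rises in this list was close to the background. Besides the pseudogene, its member Dnajc15 was the most depleted of the family over IgG.

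The list for the ER does not hold Dnajc14, which rose, or Dnajb11 and Sec63, which fell. Over IgG their log2 fold changes were 0.85, -0.42 and -0.19, in that order. Among the 8 members listed for the ER, 6 rose and 2 fell in each contrast with p-UPF1. Over all genes 40.4% were higher and 42.2% lower over IgG, and 40.8% and 42.6% over input. The list was chosen with earlier results of these data known. The median log2 fold change of its 8 members was 0.69 over IgG and 0.44 over input. Besides Dnajb12 the rises were of Dnajc18 at 1.02 over IgG, Dnajc1 at 0.71, Dnajc16 at 0.69, the disulfide reductase Dnajc10 at 0.68 and Dnajc3, an inhibitor of the kinase PERK, at 0.38. The 2 that fell were Dnajb9 and Dnajb14, each by more than 2 on the log2 scale. None of the 6 reached the binding criterion, since their log2 fold changes over input ran from 0.17 to 0.75. The chosen transcripts of these 6 genes had 3′ UTRs of 1173 to 4016 nt, and those of Dnajb9 and Dnajb14 had 1395 and 8088 nt.

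All 5 members of RNA processing, the ribosome and the nucleus fell in both contrasts, where 42.2% of all genes were lower over IgG and 42.6% over input, with medians of -1.26 relative to IgG and -1.19 relative to input. Over IgG the values were -0.64 for the histone chaperone Dnajc9, -0.82 for Dnajc17, -1.26 for Dnajc2, -1.28 for Dnajc21, which acts in assembly of the large ribosomal subunit, and -1.45 for Dnajc8. Dnajc2 held 266 to 274 CPM in input, 241 to 266 CPM with IgG and 104 to 106 CPM with p-UPF1. Dnajc8 held 167 to 175 CPM in input, 147 CPM in each IgG library and 53.5 to 54.2 CPM with p-UPF1. The direction of these 5 held under each of 6 scalings of the counts, with the median over IgG between -1.42 and -1.25. The chosen transcripts of these 5 genes had 3′ UTRs of 66 to 724 nt. All 5 are thus among the 11 members with a 3′ UTR under 1000 nt described below. These groupings overlap, and a part of 3′ UTR length in the falls was not tested.

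Of the 4 members of vesicle and membrane traffic, Dnajc6 was not tested, and Dnajc5 and Dnajc27 were bound, as were 6.25% of all genes tested. Dnajc13, an endosomal protein, fell by 0.47 over IgG and had a log2 fold change of 0.16 over input. Dnajc13 stood at 242, 249 and 257 CPM in input, 347, 404 and 411 CPM with IgG and 269, 272 and 297 CPM with p-UPF1. Its IgG libraries were thus the highest of the 3 groups. The call over input (edgeR adjusted P of 0.0164) was lost without input library A, without p-UPF1 library C, with library size alone and with upper-quartile scaling.

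The wider Hsp70 system was set beside the family through lists chosen with earlier results of these data known. Of the 15 Hsp70 genes, 3 rose over IgG and 11 fell, with a median of -0.66 on the log2 scale. Over all genes, 40.4% were higher and 42.2% lower in this contrast, against which the counts of these lists are to be read. The lowest was Hspa8, the constitutive cytosolic Hsc70, at 1222 ± 14.8 CPM in input, 990 ± 3.61 CPM with IgG and 232 ± 10.3 CPM with p-UPF1 (SD, n = 3), a log2 fold change over IgG of -2.09. The highest was Hspa12a, a distant relative, at 1.77. Hspa5, the BiP of the ER, and Hspa9, the mitochondrial Hsp70, fell by 1.14 and 0.63.

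Of the 9 nucleotide exchange factors, which reset Hsp70, 3 rose and 5 fell over IgG, from Bag2 at 1.44 to Hspbp1 at -1.60. All 7 genes of the Hsp90 family and its partners fell, from Trap1 at -0.69 to Hsp90ab1 at -1.56. Among 4 J-domain proteins under other names, 1 rose over IgG, the clathrin-uncoating Gak at 0.18, a call lost in some scalings, and 3 fell, the lowest being Hscb, which acts in iron-sulfur cluster assembly, at -2.36. Of the 2 heat shock transcription factors, Hsf2 fell by 1.54 and Hsf1 had a value of -0.12 that did not pass the test here but did in some of the 6 scalings. Of the 6 small heat shock proteins and chaperonins 4 were tested, and they ran from Hspb6 at 2.19, which rose, to Hspe1, the mitochondrial co-chaperonin, which fell by 3.51 over IgG and with 2 others made up the 3 that fell. Of these 43 partner genes, 41 were tested, and 0 met the binding criterion, which 6.25% of all genes met. The difference between these genes and the DnaJ members was not tested.

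**Figure D3:**
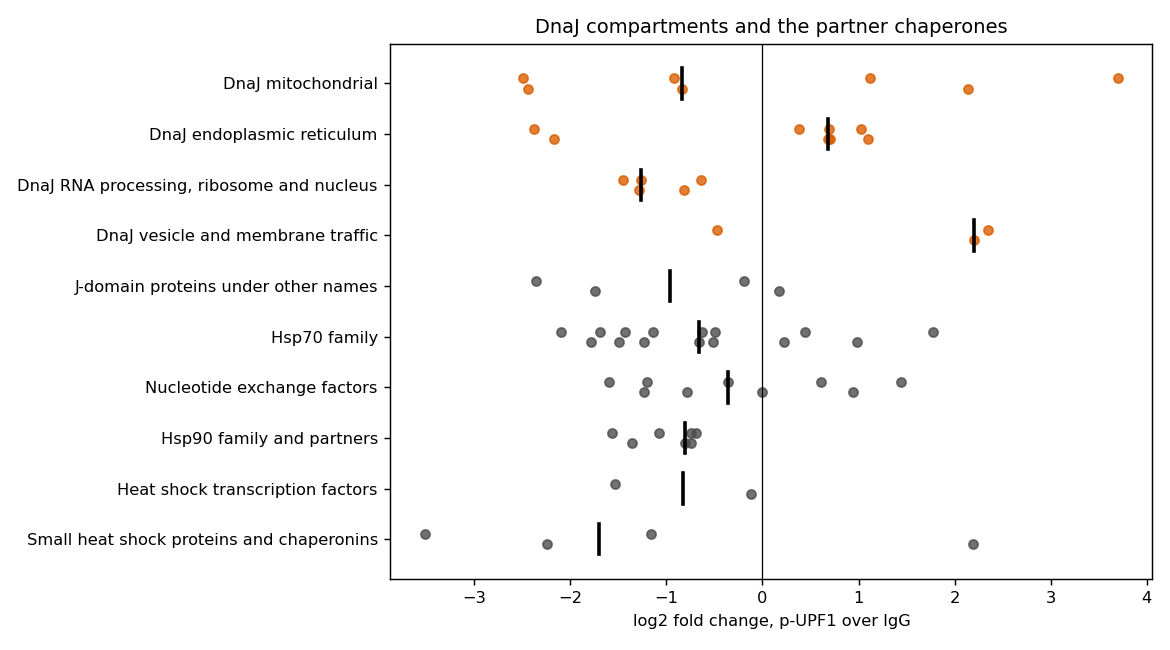
Log2 fold change of p-UPF1 over IgG for the DnaJ members by compartment (orange) and for lists of their partner chaperones (grey), with 1 point a tested gene and a black bar at each list's median. The ER and vesicle lists of the DnaJ family have medians above 0, at 0.69 and 2.20, and the other lists have medians below 0. The vesicle list has 3 tested genes, the bound Dnajc5 and Dnajc27 and Dnajc13, and its median is the value of Dnajc5.

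The IgG precipitate differed from the lysate by much less than the p-UPF1 precipitate did. No tested member had a log2 fold change of IgG over input of 1 or more in size, and the SD across members was 0.27, against 1.57 for p-UPF1 over IgG. At an adjusted P under 0.05, 4 members were higher in IgG and 18 lower, where 18.2% of all genes were higher and 34.7% lower. This split depended on the scaling, among members and among all genes alike. Library size alone gave 9 members higher and 9 lower, with 3522 and 3175 of all 13129 genes, and TMM with an input library as its reference gave 8 and 10 members, with 3416 and 3256 genes, against 2390 and 4560 genes in the scaling used here. The members farthest from 0 were Dnajc13 at 0.64 and Dnaja4 at 0.42 above, and Dnajc15 at -0.64, Dnajc19-ps at -0.62 (a call lost with DESeq2, without the low-count filter and without input library B), Dnajc19 at -0.57 and Dnajc30 at -0.42 below. For the 4 bound members input and IgG differed at an adjusted P under 0.05 only for Dnajc27, which was 1.17-fold lower in IgG (edgeR adjusted P of 0.00940).

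What the bound transcripts share in sequence was read from 1 transcript a gene of GENCODE M21, the best by its APPRIS rank and then by coding length, for 36 tested members. The 3′ UTR measured 5757 nt in Dnajc5, 3672 nt in Dnajc27, 1940 nt in Dnajc28 and 1409 nt in Dnajc11, against a median of 1512 nt over the 36 members and 1016 nt over 11866 genes. All 11 members with a 3′ UTR under 1000 nt fell over IgG and over input, while 53.0% of the 5871 genes with such 3′ UTRs fell over IgG and 54.5% over input. Among the 25 members at or above 1000 nt, a limit taken after the values were seen, 13 rose and 8 fell over IgG, against 54.6% and 30.3% of 5995 genes.

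A long 3′ UTR did not go with a rise in every member. Dnajb14 with 8088 nt, Dnajc15 with 5716 nt and Dnaja1 with 4203 nt had some of the longest 3′ UTRs of the family and were among the most depleted. The Spearman correlation of 3′ UTR length with the log2 fold change over IgG was 0.34 across the 36 members and 0.32 across all genes. It was 0.42 against 0.13 for coding length and 0.41 against 0.14 for GC content. Genes are not independent replicates, and these features are correlated with each other, so these values are a description.

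An exon junction more than 50 nt after the stop codon, which can mark an mRNA for NMD, was found in the chosen transcript of 0 of the 36 members and of 0.405% of all genes. An AUG in the 5′ UTR was present in 2 of 4 bound members, in 36.1% of tested members and in 51.7% of all genes. At least 1 transcript annotated as an NMD substrate was listed for Dnajc5, Dnajc11 and Dnajc27 and for 33.3% of tested members, against 29.4% of all genes, and none was listed for Dnajc28. Of the 755 genes with a chosen transcript that met the binding criterion, 26.9% had such a listing. The counts are per gene, so isoforms could not be compared.

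**Figure D4:**
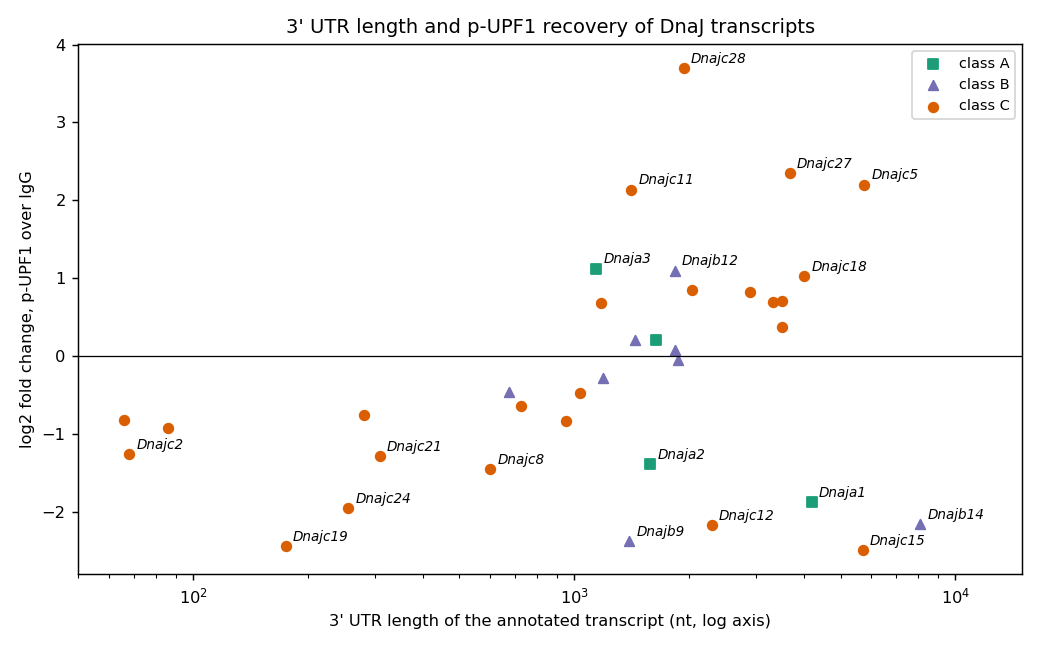
Log2 fold change of p-UPF1 over IgG against the 3′ UTR length in nt (log axis) of the chosen transcript, for 36 tested DnaJ members by class. All 11 members left of 1000 nt lie below 0, and those right of it lie on both sides, from Dnajc15 at -2.49 to Dnajc28 at 3.70.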

How the data were processed

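The authors deposited raw read counts per gene for 9 libraries, with genes given by NCBI Gene number. The submitters' processing notes name cutadapt, HISAT2, featureCounts and mm10, without versions. The library kit was directional, but the methods name unstranded alignment for RNA-seq, so genes that overlap on opposite strands are uncertain. The counts hold no molecular identifiers. Columns carry letters where the labels give replicate numbers, and a column was mapped to a group but not to a single sample.

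Symbols came from RefSeq (25275 of 27179 identifiers matched). Genes passing edgeR's filterByExpr (minimum count 10, minimum total 15) were kept, 13129 in all. Counts were TMM-scaled and fitted with edgeR 4.0.16 in R 4.3.3 (glmQLFit and glmQLFTest, 3 groups, no covariate, 6 residual degrees of freedom, prior count 0.125), with two-sided tests and Benjamini-Hochberg adjustment over all genes tested. The fit was checked on simulated counts with 200 changed genes. Alternatives used other scalings, filters and fold tests, DESeq2 1.42.0, limma-voom (limma 3.58.1), only the groups compared, each library left out and, added later, the column letter as a block.

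The members and gene lists were chosen with earlier results of these data known. Every member could be named. Values per library are given for bound members, for class A, for the highest and lowest member of each class over IgG, and for the 3 members on each side of the input minimum. Others shown per library were chosen after their values were seen. Of each list the highest and lowest gene over IgG is named, and Hspa5 and Hspa9 were added after their values were seen. UTR and coding lengths and motif codons were read from GENCODE M21 transcripts. One item of the marker lists is not reported here.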

Additional observations from a re-analysis of the deposited data

How the results depend on the processing

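The number of p-UPF1-bound members was 4 in the main analysis, 4 under each of 20 alternatives (9 of them leaving out 1 library), 3 when the fold minimum itself was tested and 5 with Dnajb2 and Dnajb11 kept. The counts of members higher and lower in p-UPF1 stayed within 1.5 times of the main counts throughout. The counts of IgG over input moved, to 9 higher and 9 lower with library size alone, 7 higher with upper-quartile scaling, 8 and 10 with an input library and 9 and 10 with an IgG library as the TMM reference, 7 and 9 without the low-count filter, and 8 and 9 with only the groups compared. All genes moved the same way, from 2390 higher and 4560 lower to 3522 and 3175, 3032 and 3686, 3416 and 3256, 3431 and 3256, 3289 and 3497, and 3178 and 3040 in that order. The members' median log2 fold change over IgG was -0.63, -0.60, -0.55 and -0.42 with library size alone, upper-quartile scaling, an input reference and no filter, and over input it was -0.051 with no filter and -0.071 with an IgG reference. For IgG over input it was -0.054, -0.10, -0.062, -0.062, -0.080 and -0.062 with library size alone, upper-quartile scaling, an input reference, an IgG reference, no filter and only the groups compared. Without 1 library each, the medians ran from -0.53 to -0.42 over IgG, from -0.42 to -0.13 over input and from -0.20 to -0.15 for IgG over input. The median of all genes moved with the scaling too. Over IgG it went from -0.03 to -0.19, -0.17, -0.12 and 0.01 with library size alone, upper-quartile scaling, an input reference and no filter, and over input from -0.03 to 0.10 with no filter and 0.08 with an IgG reference. For IgG over input it went from -0.10 to between -0.03 and 0.01 in the alternatives named.

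Signs turned for Dnajb1 over IgG (-0.088 with library size alone, -0.063 with upper-quartile scaling, -0.010 with an input reference), for Dnajb4 over input (0.034 with an IgG reference, 0.056 with no filter) and for Dnajb13 over IgG (-0.035 without p-UPF1 library A, the lowest of a range that reached 0.37 without p-UPF1 library C). The cause was not tested. Of 80 values of single members, 4 lost and 4 gained their call under at least 1 alternative, and 72 did neither. The depth leaves 7 members untested. A replicate block on the column letter, added after seeing the data, gave 4 bound members, 13 higher and 20 lower over IgG and 15 higher and 19 lower over input, and it changed no call of a member. Deviations of same-letter libraries from their group means correlated at -0.0051 to 0.054 across 13129 genes, and not every library correlated best with its own letter, so the letters were not taken to pair the samples.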
